A study of Bos taurus with 14 samples.

Results

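The genes described here are 7 members of the MHC class I antigen presentation pathway of cattle: B2M, TAP1, TAP2, TAPBP, PSMB8, PSMB9 and NLRC5. They were taken by symbol from the gene column of the deposited files, which hold 23159 usable features for the controls and passage 10 and 24616 for later passages, with 18440 names in common. All 7 were present in both sets of files. The measurements come from RNA sequencing of 14 cattle libraries. The stem cells were bovine embryonic stem cells (bESC) derived from blastocysts, cultured on mouse embryonic fibroblasts in CTFR medium. This is a base medium without growth factors to which human FGF2 (20 ng/mL) and IWR1 (2.5 µM), a small molecule inhibitor of WNT signalling, were added. Line B was sampled at passages (P) 10, 12, 24, 35 and 46 and line A at P10, P13, P23, P35 and P45, with 1 library per sample. The references were 2 pools of 10 whole in vivo blastocysts and 2 samples of skin fibroblasts. The labels give no age, sex or breed of the animals. Within a line the libraries follow 1 culture through its passages, so p-values among them measure the spread between passages. In the other comparisons they measure the spread between 2 lines, 2 pools and 2 fibroblast samples.

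MHC class I molecules display peptides from inside the cell to cytotoxic T cells. Peptides are cut by the proteasome, whose immunoproteasome form carries the subunits encoded by PSMB8, PSMB9 and PSMB10. They are pumped into the endoplasmic reticulum by a transporter made of TAP1 and TAP2, and loaded with the help of tapasin, encoded by TAPBP, onto a heavy chain that is held together with beta-2-microglobulin, encoded by B2M. NLRC5, characterised in human and mouse, is a transactivator of MHC class I genes, which interferons also raise. Early embryos and pluripotent cells of mouse and human are known for low class I levels. In the bovine RefSeq assembly ARS-UCD2.0, in which 7 of 7 symbols matched, TAP1 lies between PSMB8 and PSMB9 as their direct neighbour on both sides.

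Values are RPKM, reads per gene length and library total, so levels can be set side by side between genes. Summed RPKM lay between 349527 and 435754 in the first set of files (P10, blastocysts, fibroblasts) and between 475822 and 501373 in the second (later bESC). In the blastocyst pools 2 features took 65.8% and 64.0% of the summed RPKM, against 3.36% or less in every other library, which lowers all other values there. Changes are therefore also given relative to the median gene of a comparison. An exact 0 was not read as absence, since even GAPDH, a gene of every cell, stood at 0 in all 14 files. Fibroblast markers summed to 108 and 216 RPKM at P10 and 199 to 315 RPKM in later bESC, against 2.68 and 3.17 RPKM in blastocysts and 5760 and 6095 RPKM in fibroblasts. Pluripotency markers summed to 474 and 606 RPKM at P10, against 68.2 and 86.8 RPKM in blastocysts and 0.499 and 2.14 RPKM in fibroblasts. Trophectoderm markers summed to 38.1 and 42.1 RPKM at P10 and 81.3 to 275 RPKM in later bESC, nearly all of it KRT18, against 359 and 484 RPKM in blastocysts and 7.63 and 11.5 RPKM in fibroblasts. CDX2, a defining marker of trophectoderm, had 13.8 and 15.9 RPKM in blastocysts and was listed at 0 in all other libraries.

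At P10 the stem cells held low levels of nearly the whole class I set beside skin fibroblasts. B2M, the transporter subunit TAP2, tapasin and both immunoproteasome subunits were lower in bESC at P10, by 1.46 to 3.35 on the log2(RPKM + 1) scale. TAP1 was not called, and its values overlapped those of fibroblasts. NLRC5 stayed under 1 RPKM in all 6 libraries of this comparison. Of the 6 members that passed the filter of at least 1 RPKM in at least 2 libraries, 5 were called lower and 0 higher, where the call is a limma adjusted p under 0.05. Over all 11761 genes tested 21.9% were called lower and 35.4% higher, and the median gene stood at 0.23, against a median of -2.27 for the 6 members. TAP2 passed the filter through the fibroblasts, since outside them it reached 1 RPKM only in line B at P10.

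**Figure D1:**
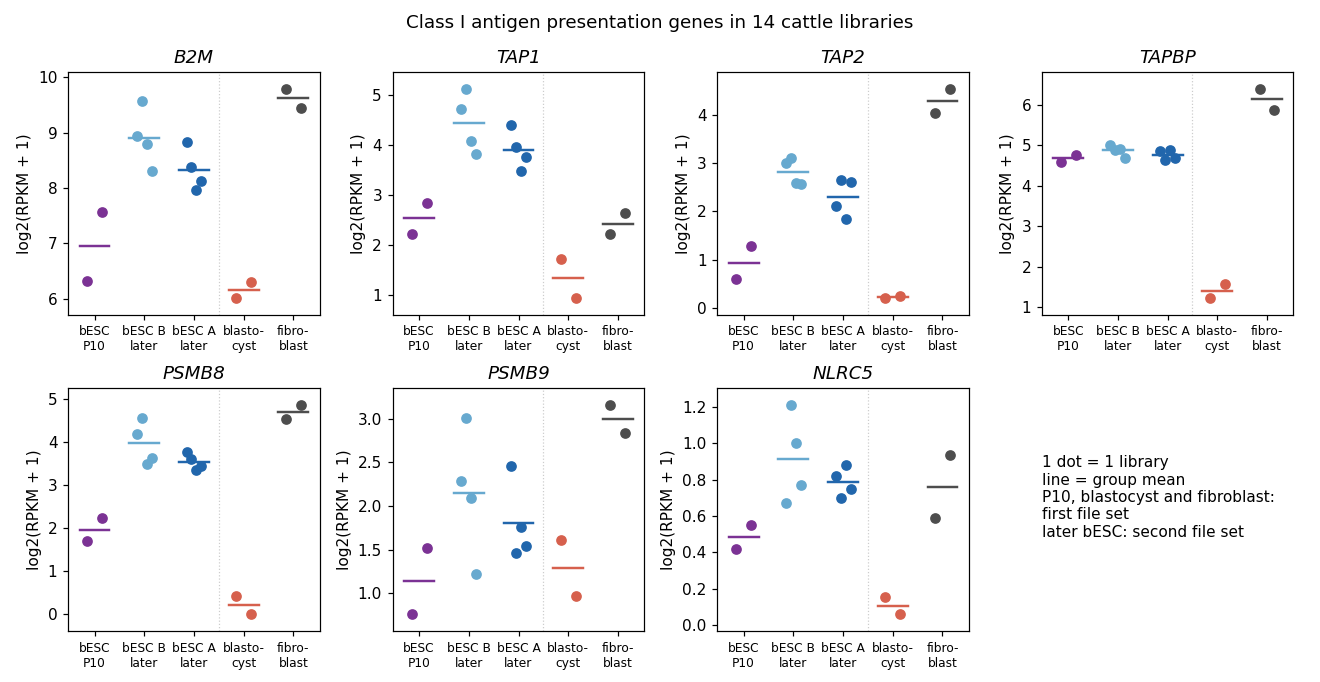
Level of each of the 7 genes as log2(RPKM + 1) in the 14 libraries (1 dot per library, horizontal line at the group mean), by group. In the values as deposited, blastocysts are lowest for 6 of the 7 genes, fibroblasts highest for 5, and TAP1 is highest in later bESC. The order of blastocysts and P10 depends on the scaling for B2M, TAP1 and TAP2.

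B2M, the light chain shared by all class I molecules, was the most abundant member in every library. It had 188 RPKM in line B and 78.9 RPKM in line A at P10, against 888 and 697 RPKM in fibroblasts. Both stem cell values lay far under both fibroblast values, and those of the lines differed 2.39-fold. The log2 change was -2.68 ± 0.40 (SE), or -2.91 relative to the median gene, with an adjusted p of 0.00161. It was -2.06 without line A and -3.30 without line B.

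The subunits of the peptide transporter gave different results. TAP2 had 1.42 RPKM in line B and 0.513 RPKM in line A at P10, against 15.4 and 22.2 RPKM in fibroblasts. The groups were far apart. TAP2 fell by 3.35 ± 0.29 on the log2 scale (adjusted p = 1.9e-04), the steepest change among the members in this comparison. TAP1 had 6.24 RPKM in line B and 3.66 RPKM in line A at P10, against 3.65 and 5.28 RPKM in fibroblasts. Those ranges overlapped, and the log2 change was 0.10 ± 0.36 with an adjusted p of 0.825. The sign of the TAP1 value turned under other scalings, to -0.16 with quantile normalization and -0.095 with median-of-ratios scaling, and when 1 library was left out, to -0.21 without line B and -0.11 without fibroblast sample 1. The ratio of TAP1 to TAP2 was 4.39 in line B and 7.13 in line A at P10, against 0.237 and 0.238 in fibroblasts.

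Tapasin was the member whose level at P10 came closest to that of fibroblasts among those called lower. TAPBP had 26 RPKM in line B and 23.3 RPKM in line A at P10, against 83.5 and 57.6 RPKM in fibroblasts. The lines were nearly equal and both lay under both fibroblast samples. The log2 change was -1.46 ± 0.24, or -1.69 relative to the median gene, with an adjusted p of 0.00243.

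Both immunoproteasome subunits were lower in bESC. PSMB8 had 3.70 RPKM in line B and 2.26 RPKM in line A at P10, against 22.3 and 28.2 RPKM in fibroblasts. PSMB9 had 1.85 RPKM in line B and 0.690 RPKM in line A at P10, against 7.93 and 6.12 RPKM in fibroblasts. Neither gene overlapped between the groups. PSMB8 fell by 2.74 ± 0.28 (adjusted p = 3.33e-04) and PSMB9 by 1.86 ± 0.34 (adjusted p = 0.00374) on the log2 scale. PSMB5, the constitutive subunit whose place PSMB8 takes, went the other way, with 114 RPKM in line B and 122 RPKM in line A at P10, against 69.9 and 67.7 RPKM in fibroblasts (log2 change 0.77 ± 0.15, adjusted p = 0.00576). The ratio of PSMB8 to PSMB5 was thus 0.0326 in line B and 0.0185 in line A at P10, against 0.319 and 0.417 in fibroblasts.

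NLRC5 had 0.466 RPKM in line B and 0.338 RPKM in line A at P10, against 0.504 and 0.912 RPKM in fibroblasts. Both fibroblast values were higher, the lower of them narrowly. It entered a test only when no filter was used, with a log2 change of -0.28 and an adjusted p of 0.178. All 5 calls against fibroblasts held under every alternative tried, which covered the pseudocount, the filter, the scaling and each library left out. In bulk RNA, fewer cells that express a gene and less RNA per cell cannot be told apart.

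**Figure D2:**
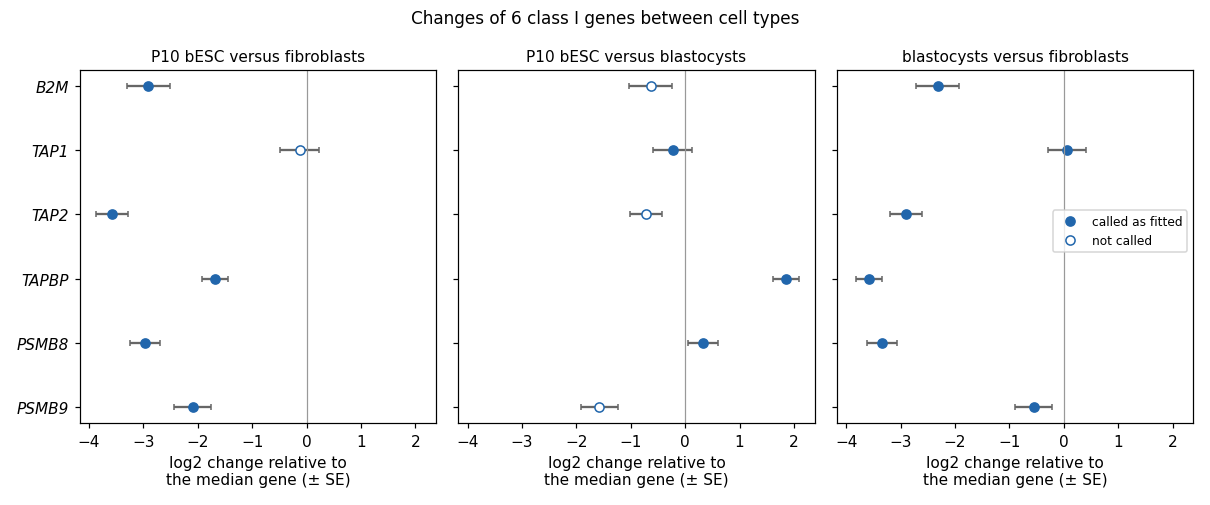
Change of the 6 tested genes in each comparison of cell types, on the log2(RPKM + 1) scale with the median gene of each comparison set to 0 (point, with the SE of the fit as the bar). Filled points passed the test as fitted, before the median gene was subtracted. TAP1 lies near 0 in all 3 panels, and TAPBP is the only gene far above 0 in bESC against blastocysts.

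Genes that work with the members were lower at P10 than in fibroblasts in several groups. The class I-like genes have proteins that pair with B2M or resemble the class I heavy chain in fold. Of 6 found, 4 were tested and 4 were lower, but 2 of these, HFE and PROCR, reached 1 RPKM in fibroblasts alone. Among the 4 were FCGRT, the neonatal Fc receptor (1.80 and 1.78 RPKM at P10, against 39.5 and 28.9 RPKM in fibroblasts, log2 change -3.64 ± 0.23, adjusted p = 5.67e-05), HFE, a regulator of iron uptake (log2 change -2.14, adjusted p = 8.99e-05), and PROCR, the protein C receptor (log2 change -2.78, adjusted p = 3.1e-04). The other immunoproteasome genes were lower in 3 of 3 cases. The activator subunits PSME1 and PSME2 fell by 1.86 (adjusted p = 3.26e-04) and 1.16 (adjusted p = 0.00808), and the catalytic subunit PSMB10 by 1.39 (adjusted p = 0.0013). Among 17 genes of the constitutive proteasome, 3 were higher and 1 lower. PSMA5 was 0.67 higher (adjusted p = 0.0125) and PSMB1, the 1 lower gene, fell by 0.79 (adjusted p = 0.018). Of these 2 and PSMB5, only the PSMB5 call held under every scaling.

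Of 5 tested peptide loading partners, 3 were lower and 0 higher. TAPBPL, a tapasin relative, fell by 1.39 (adjusted p = 0.00403) and kept its call under every scaling. The chaperones PDIA3 and CALR fell by 0.86 (adjusted p = 0.00804) and 0.77 (adjusted p = 0.0427) but did not keep theirs. Among 12 regulators of class I transcription 5 were lower and 3 higher. IRF1, an interferon-induced activator of class I promoters, had 0.38 RPKM in line B and 0.22 RPKM in line A at P10, against 18.7 and 22.2 RPKM in fibroblasts, and fell by 4.04 ± 0.23 (adjusted p = 4.25e-05). IRF3, which acts downstream of nucleic acid sensors, and NFKB1, an NF-kappaB subunit, fell by 1.5 (adjusted p = 0.00108) and 1.17 (adjusted p = 0.00629). The 3 higher regulators were NFYB (log2 change 1.34, adjusted p = 0.00745), RFX5 (1.11, adjusted p = 0.014) and NFYC (0.87, adjusted p = 0.0224). Of these, only NFYB kept its call under every scaling.

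Genes of interferon reception were lower in 7 of 11 cases and higher in 1. Of the 7, IFNAR2 reached 1 RPKM in fibroblasts alone. IFNGR2, the second chain of the interferon gamma receptor, had 3.15 RPKM in line B and 1.86 RPKM in line A at P10, against 167 and 99.0 RPKM in fibroblasts (log2 change -5.24 ± 0.31, adjusted p = 5.1e-05). IFNAR2, a chain of the type I interferon receptor, had 0.03 RPKM in line B at P10 and a listed 0 in line A, against 11.6 and 6.63 RPKM in fibroblasts (adjusted p = 1.17e-04). The receptor kinase JAK1 fell by 2.50 (adjusted p = 1.53e-04). Of 25 interferon-stimulated genes found, 15 were tested, of which 12 were lower and 0 higher. The filter bears on this count: 7 of the 12, among them IFIT1, reached 1 RPKM in fibroblasts alone. Another 10 genes under the filter were left out. IFITM2, which encodes a membrane protein that restricts viruses, fell by 6.36 (adjusted p = 2.51e-05), and IFI35 fell by 3.69 (adjusted p = 2.11e-04). IFIT1, an RNA sensor, had 0.10 RPKM in line B at P10 and a listed 0 in line A, against 28.2 and 42.6 RPKM in fibroblasts (adjusted p = 2.84e-05). BOLA-DRB3, a chain of the class II molecule that presents peptides to helper T cells, was listed at 0 in both fibroblast samples and had 6.06 RPKM in line B and 2.02 RPKM in line A at P10 (adjusted p = 0.00293). It passed the filter through the P10 libraries, the only ones of this fit in which it reached 1 RPKM.

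Beside whole blastocysts the picture depended on how the libraries were scaled. As fitted, 3 of the 6 tested members were higher in bESC at P10 and 0 were lower. Over all genes 73% were called higher and 7.33% lower, with the median gene at 1.43. Quantile normalization turned the split over all genes into 33.0% higher and 28.4% lower, and that over the members into 1 higher (TAPBP) and 1 lower (PSMB9).

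TAPBP stood out from the rest. It had 26 RPKM in line B and 23.3 RPKM in line A at P10, against 1.34 and 1.98 RPKM in blastocysts. The groups were far apart. The log2 change was 3.28 ± 0.24, or 1.85 relative to the median gene, with an adjusted p of 3.76e-05. TAPBP was higher under every scaling tried, with log2 changes from 1.71 to 3.28.

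PSMB8 had 3.70 RPKM in line B and 2.26 RPKM in line A at P10, against 0.339 RPKM in blastocyst pool 1 and a listed 0 in pool 2. Its log2 change of 1.76 ± 0.28 (adjusted p = 0.00103) came to 0.33 relative to the median gene and lost its call under quantile normalization (0.83, adjusted p = 0.13). TAP1 had 6.24 RPKM in line B and 3.66 RPKM in line A at P10, against 2.33 and 0.928 RPKM in blastocysts. Its log2 change of 1.20 ± 0.36 (adjusted p = 0.018) lay at -0.23 relative to the median gene, turned negative with quantile normalization (-0.49) and with median-of-ratios scaling (-0.10), and lost its call without blastocyst pool 2 (0.80, adjusted p = 0.111) and without line B (0.88, adjusted p = 0.0949).

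The other members did not pass the test as fitted. B2M had 188 RPKM in line B and 78.9 RPKM in line A at P10, against 63.4 and 77.4 RPKM in blastocysts. The line A value was next to that of the higher pool. The log2 change was 0.79 (adjusted p = 0.108). It passed the test without line A (1.41, adjusted p = 0.00502), and its sign turned under each of 3 other scalings, to values from -1.0 to -0.53. TAP2, at 1.42 and 0.513 RPKM against 0.157 and 0.191 RPKM in blastocysts, had a log2 change of 0.71 with an adjusted p of 0.0616, and it passed the test at a pseudocount of 0.1 (1.82, adjusted p = 0.0126), without line A (1.04, adjusted p = 0.0215) and without either fibroblast sample (adjusted p = 0.0474 and 0.0465).

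PSMB9 was the 1 tested member with a negative value here. It had 1.85 RPKM in line B and 0.690 RPKM in line A at P10, against 2.04 and 0.960 RPKM in blastocysts. The ranges overlapped. The log2 change of -0.15 (adjusted p = 0.692) came to -1.58 relative to the median gene, and PSMB9 was called lower under quantile normalization (-1.80, adjusted p = 0.00186), median-of-ratios scaling (-1.22, adjusted p = 0.0181) and rescaling without the 2 most abundant features (-1.02, adjusted p = 0.0369). As deposited, its sign turned without line A (0.23) and without blastocyst pool 1 (0.16). NLRC5 had 0.466 and 0.338 RPKM at P10, against 0.112 and 0.042 RPKM in blastocysts, and was tested only without a filter (0.38, adjusted p = 0.064).

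The partner genes named next differed between P10 and blastocysts under every scaling. The immunoproteasome activator subunit PSME2 was higher in bESC (log2 change 2.60, adjusted p = 1.14e-04), as were RFX5 (2.68, adjusted p = 1.51e-04) and RFXANK (2.82, adjusted p = 1.14e-04), subunits of the factor that binds the conserved promoter box of MHC genes. SOCS3, a feedback inhibitor of cytokine receptors, had 4.24 and 4.89 RPKM at P10 and was listed at 0 in both pools (adjusted p = 3.67e-05). IRF1 was lower, with 0.38 RPKM in line B and 0.22 RPKM in line A at P10, against 1.10 and 1.78 RPKM in blastocysts (log2 change -0.90 ± 0.23, adjusted p = 0.00941). Of 15 interferon-stimulated genes 5 were called higher and 2 lower as fitted, beside 73% and 7.33% of all genes, and 3 were higher and 2 lower under every scaling. IFITM3 was higher (2.81, adjusted p = 1.71e-04), and GBP4, a guanylate-binding protein, was lower (-2.85, adjusted p = 5.45e-05). The filter bears on GBP4, 1 of the 2 lower under every scaling, since it reached 1 RPKM in blastocysts alone. BOLA-DMA, which helps to load class II molecules, had 4.25 and 1.90 RPKM at P10 and was listed at 0 in both pools (adjusted p = 7.1e-04). The pools contained 3.16 and 2.95 RPKM of IFNT, the interferon that ruminant trophectoderm secretes, which was listed at 0 in both P10 libraries and both fibroblast samples.

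Blastocysts lay under fibroblasts in each of the 6 tested members as fitted, beside 63.4% of all genes called lower and 11% called higher. The median gene stood at -1.15. The split over all genes was 31.4% higher and 33.1% lower with quantile normalization. B2M had 63.4 and 77.4 RPKM in blastocysts, against 888 and 697 RPKM in fibroblasts (log2 change -3.47 ± 0.40, -2.32 relative to the median gene, adjusted p = 2.62e-04). TAP2, TAPBP and PSMB8 fell by 4.06 (adjusted p = 4.03e-05), 4.74 (adjusted p = 1.4e-05) and 4.5 (adjusted p = 2.38e-05). These 4 were lower under every scaling. Outside the fibroblasts, TAP2 reached 1 RPKM only in line B at P10. PSMB9, which fell by 1.71 (adjusted p = 0.00331), lost its call under all 3 other scalings. TAP1, with 2.33 and 0.928 RPKM in blastocysts against 3.65 and 5.28 RPKM in fibroblasts, changed by -1.09 (adjusted p = 0.0277). It turned to 0.34, 0.0079 and 0.012 under those scalings, and lost its call without blastocyst pool 2 (-0.70, adjusted p = 0.165), without fibroblast sample 2 (-0.88, adjusted p = 0.121) and without a filter (adjusted p = 0.0652). NLRC5, at 0.112 and 0.042 RPKM in blastocysts against 0.504 and 0.912 RPKM in fibroblasts, had a log2 change of -0.66 with an adjusted p of 0.012 when no filter was used.

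The partner groups of the class I pathway were lower in blastocysts too. The 3 other immunoproteasome genes and the 4 tested class I-like partners, 2 of which reached 1 RPKM in fibroblasts alone, were lower under every scaling, with log2 changes of -3.35 for PSME1 (adjusted p = 1.81e-05), -3.46 for PSMB10 (adjusted p = 1.88e-05) and -5.04 for FCGRT (adjusted p = 1.01e-05). So were the loading partners PDIA3 (-3, adjusted p = 2.42e-05), CALR (-3.22, adjusted p = 6.06e-05) and TAPBPL (-3.01, adjusted p = 7.48e-05). Of 17 constitutive proteasome genes 15 were lower and 1 higher as fitted, beside 63.4% of all genes lower, and 0 of the 17 were lower under every scaling. Their median was 0.22 above the median gene. PSMB6, with 35.7 and 33.7 RPKM in blastocysts against 95.1 and 90.2 RPKM in fibroblasts, changed by -1.39 (adjusted p = 2.18e-04), or -0.24 relative to the median gene, and its sign turned under 2 of the 3 other scalings. PSME4, a nuclear proteasome activator chosen after its values were seen, was the 1 gene higher (1.24, adjusted p = 5.44e-04). IRF1 had 1.10 and 1.78 RPKM in blastocysts, against 18.7 and 22.2 RPKM in fibroblasts (log2 change -3.14, adjusted p = 4.09e-05). IFNGR2, at 0.11 RPKM in pool 1 and listed at 0 in pool 2, was among 10 of 11 interferon reception genes called lower (adjusted p = 1.03e-05). Of the 10, IFNAR2 reached 1 RPKM in fibroblasts alone.

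The class I heavy chains, the partners onto which peptide is loaded, were measured as 5 features in the first set of files, 3 of which carry the name BOLA with a number. Class I heavy chain genes are a family of similar copies, between which the counting could split reads, so single values are uncertain. Line B lay far above line A at P10 for each. JSP.1 had 60.8 RPKM in line B and 3.20 RPKM in line A at P10, against 7.32 and 1.61 RPKM in blastocysts and 63.1 and 46.5 RPKM in fibroblasts. BOLA-NC, a non-classical heavy chain, had 31.8 RPKM in line B and 1.70 RPKM in line A at P10. BOLA-NC had 0.051 RPKM in blastocyst pool 1 and a listed 0 in pool 2, against 11.02 and 18.1 RPKM in fibroblasts. Line B exceeded line A 19.0-fold for JSP.1 and 18.7-fold for BOLA-NC, and by 11.8-fold to 14-fold for the other 3. Against fibroblasts 2 of the 5 features were called lower at P10, the numbered BOLA copies 1 (log2 change -3.11, adjusted p = 0.0183) and 2 (-3.73, adjusted p = 0.00637). The other 3 were not called, among them JSP.1 (-1.78 ± 1.19, adjusted p = 0.243). In line B at P10, the numbered BOLA copy 3 (115.5 RPKM) and BOLA-NC lay above both fibroblast samples. Copy 3 had 67.85 and 58.87 RPKM in fibroblasts and 8.24 RPKM in line A at P10. BOLA-NC was called higher at P10 than in blastocysts (3.20 ± 1.03, adjusted p = 0.0248) but lost that call under 1 of the other scalings.

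**Figure D3:**
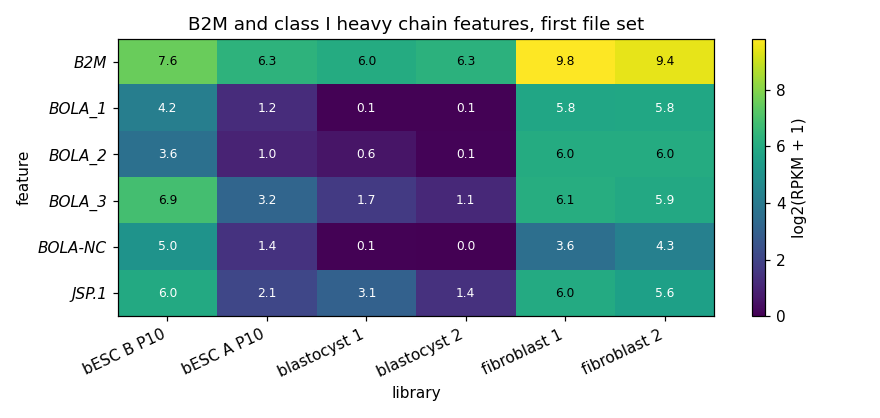
Level of B2M and of the 5 class I heavy chain features as log2(RPKM + 1), printed in each cell and shown by colour, in the 6 libraries of the first set of files. Line B at P10 holds 60.8 RPKM of JSP.1 and line A 3.20 RPKM.

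The 7 members showed the same order of the lines at P10. All 7 were higher in line B than in line A, while 50.5% of the 11418 genes at 1 RPKM or more in either library were. The ratio was 2.39 for B2M, 2.77 for TAP2, 2.69 for PSMB9, 1.70 for TAP1, 1.64 for PSMB8, 1.38 for NLRC5 and 1.12 for TAPBP. With 1 library per line at P10 this difference has no replicate check. The sum of immune cell markers, of which 6 of 9 were present in this set of files, was 12.3 RPKM in line B and 1.89 RPKM in line A. TYROBP had 8.10 RPKM in line B and 0.565 RPKM in line A, LCP1 2.95 and 0.552 RPKM, and PTPRC, the leukocyte common antigen, 0.307 and 0.041 RPKM. AIF1 had 0.677 RPKM in line B and 0.452 RPKM in line A, CD14 0.087 and 0.077 RPKM, and CD3E 0.133 and 0.199 RPKM, so the difference in the sum was mostly TYROBP. Fibroblast markers summed to 216 RPKM in line B and 108 RPKM in line A. The part of either cell type in the difference was not tested.

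For 4 of the members, B2M, TAP1, TAP2 and PSMB8, all later libraries lay above both P10 libraries, and the means of the groups differed by 1 or more on the log2 scale. The later libraries come from the second set of files, so passage and file set cannot be told apart, and no test was made. B2M had 247 to 759 RPKM (median 388) in the 8 later libraries, against 188 and 78.9 RPKM at P10. TAP1 had 10.2 to 34.1 RPKM (median 15.3), against 6.24 and 3.66 RPKM at P10. Not 1 of the later values of these 2 genes reached down to the P10 values. TAP2 had 2.61 to 7.56 RPKM (median 5.03), against 1.42 and 0.513 RPKM at P10. PSMB8 had 9.17 to 22.6 RPKM (median 11.4), against 3.70 and 2.26 RPKM at P10. These 2 genes were likewise separate between the groups.

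The mean log2 difference of later bESC from P10 was 1.67 for B2M, 1.64 for TAP1, 1.62 for TAP2 and 1.79 for PSMB8, against a median of 0.09 over 10669 genes. A difference of 1 or more was seen in 7% of those genes. Within line B the later mean was 2.66 times the P10 value for B2M and 4.30 times for TAP2, and within line A it was 4.17 and 7.94 times. In 5 of the 7 members every later library lay above both P10 libraries, as in 26.6% of genes. Line A at P13 and P35 held the highest value of the 8 later libraries for 21.4% and 28.1% of all tested genes. Without these 2 libraries the difference was 1.74 for B2M and 1.86 for PSMB8.

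The remaining members moved less. PSMB9 had 1.32 to 7.07 RPKM (median 2.82) in later bESC, which overlapped the 1.85 and 0.690 RPKM at P10. NLRC5 had 0.591 to 1.32 RPKM (median 0.736), above the 0.466 and 0.338 RPKM at P10. TAPBP, with 23.9 to 31.3 RPKM (median 28.2) against 26 and 23.3 RPKM at P10, had a log2 difference of only 0.14. IRF1 had 1.5 to 4.95 RPKM in later bESC, against 0.38 and 0.22 RPKM at P10. Immune cell markers summed to 9.07 to 24.1 RPKM in later bESC, with 9 of 9 present there against 6 of 9 at P10, and TYROBP was at 0.213 to 2.72 RPKM. The markers without a value at P10 were CD68 (2.13 to 3.23 RPKM in later bESC), CD79A (4.29 to 6.05 RPKM) and CD74 (1.47 to 8.25 RPKM). The later sums are therefore not comparable with those at P10. The part of the immune cell markers, and that of the fibroblast markers given above, was not tested.

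With the later passages in view, the order of groups differed between members. Fibroblasts ranked highest for B2M, TAP2, TAPBP, PSMB8 and PSMB9, but for B2M, PSMB8 and PSMB9 their range overlapped that of later line B. TAP1 ranked highest in later bESC of both lines, separate from P10 and from fibroblasts, across 2 sets of files. NLRC5 was also highest in later bESC, with overlap between both lines and fibroblasts. Blastocysts ranked lowest for every member but PSMB9, for which P10 ranked lowest with overlap. These ranks are of the values as deposited. Under every other scaling tried B2M was lower at P10 than in blastocysts, and under some so were TAP1 and TAP2. TAP1 was also lower in fibroblasts than in blastocysts under every other scaling.

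**Figure D4:**
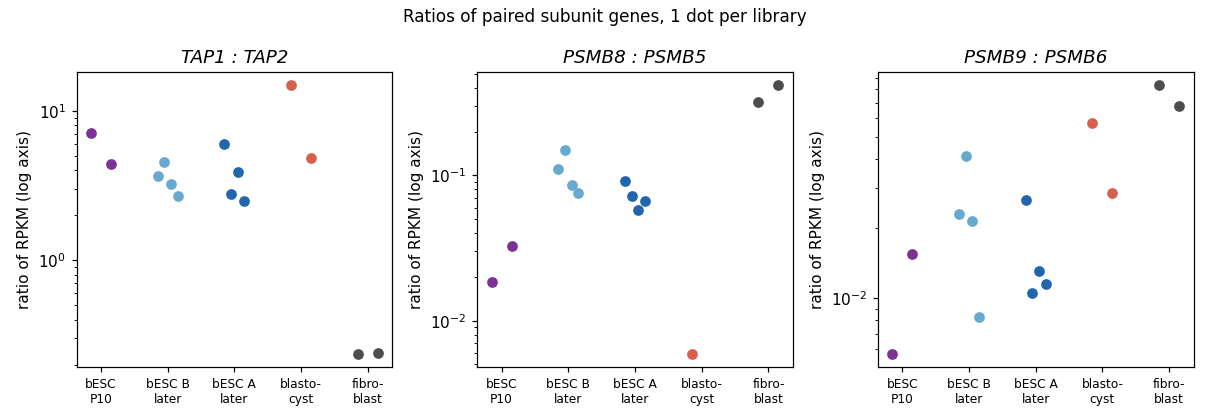
Ratio of RPKM values of 3 subunit pairs in each library, on a log axis (1 dot per library). TAP1 exceeds TAP2 in all stem cell and blastocyst libraries and is below it in both fibroblast samples. TAP2 is under 1 RPKM in blastocysts and in line A at P10. Blastocyst pool 2, with PSMB8 listed at 0, has no dot in the middle panel.

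The ratio of TAP1 to TAP2 separated fibroblasts from all other libraries. It was 2.47 to 6.01 in the 8 later libraries and 4.39 and 7.13 at P10, against 4.86 and 14.8 in blastocysts and 0.237 and 0.238 in fibroblasts. TAP2 was under 1 RPKM in line A at P10 (0.513 RPKM) and in blastocysts (0.157 and 0.191 RPKM), so the size of those ratios is uncertain. The ratio of PSMB8 to PSMB5 was 0.0578 to 0.149 in later bESC, above both P10 values and under both fibroblast values. PSMB10 relative to PSMB7, its constitutive counterpart, was 0.026 to 0.0461 in later bESC (median 0.0325), against 0.0484 and 0.0449 at P10, and it was 0.0163 and 0.0123 in blastocysts and 0.165 and 0.18 in fibroblasts. PSMB9 relative to PSMB6, its constitutive counterpart, was 0.00825 to 0.0411 in later bESC and 0.0154 and 0.00574 at P10, against 0.0571 and 0.0285 in blastocysts and 0.0834 and 0.0679 in fibroblasts.

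Among the later passages, line B lay above line A in each of the 6 tested members, but 0 were called. In this comparison 0.0156% of the 12785 genes were called higher in line B, and 0 lower. B2M had 487, 759, 445 and 315 RPKM in line B from P12 to P46, against 457, 331, 247 and 280 RPKM in line A from P13 to P45. The lines overlapped. The log2 difference was 0.58 ± 0.20, with an unadjusted limma p of 0.0171 and an adjusted p of 0.734. The differences of the other 5 ran from 0.11 for TAPBP to 0.55 for TAP1, and 4 of the 6 had an unadjusted p under 0.05, as had 755 of all genes. The sign was positive in 39.8% of all genes. Over all alternatives the B2M difference stayed between 0.39 and 0.77. JSP.1 followed with 57.4 to 146 RPKM in line B and 38.0 to 63.7 RPKM in line A (log2 difference 0.95 ± 0.26, adjusted p = 0.734).

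Over passages the fitted slopes of the tested members were negative, again with 0 called among them and 0% of all genes called in either direction. TAP1 had 25.4, 34.1, 16.0 and 13.2 RPKM in line B from P12 to P46, and 20.1, 14.6, 10.2 and 12.6 RPKM in line A from P13 to P45. In both lines the first 2 values were above the last 2. The slope was -0.28 log2 per 10 passages, with an unadjusted limma p of 0.00715 and an adjusted p of 0.961. B2M had a slope of -0.23 (unadjusted p = 0.0182, adjusted p = 0.961). The slope was negative in each of the 6 members, with 4 of the 6 and 494 of all genes at an unadjusted p under 0.05. Over all genes it was positive in 41.6%, so most genes also had a negative slope. The slopes of PSMB9, PSMB8, TAP2 and TAPBP were -0.29, -0.18, -0.06 and -0.05. The difference of slopes between line B and line A gave 0 calls, with adjusted p-values of 1, and 83 genes at an unadjusted p under 0.05, of which 0 were members.

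**Figure D5:**
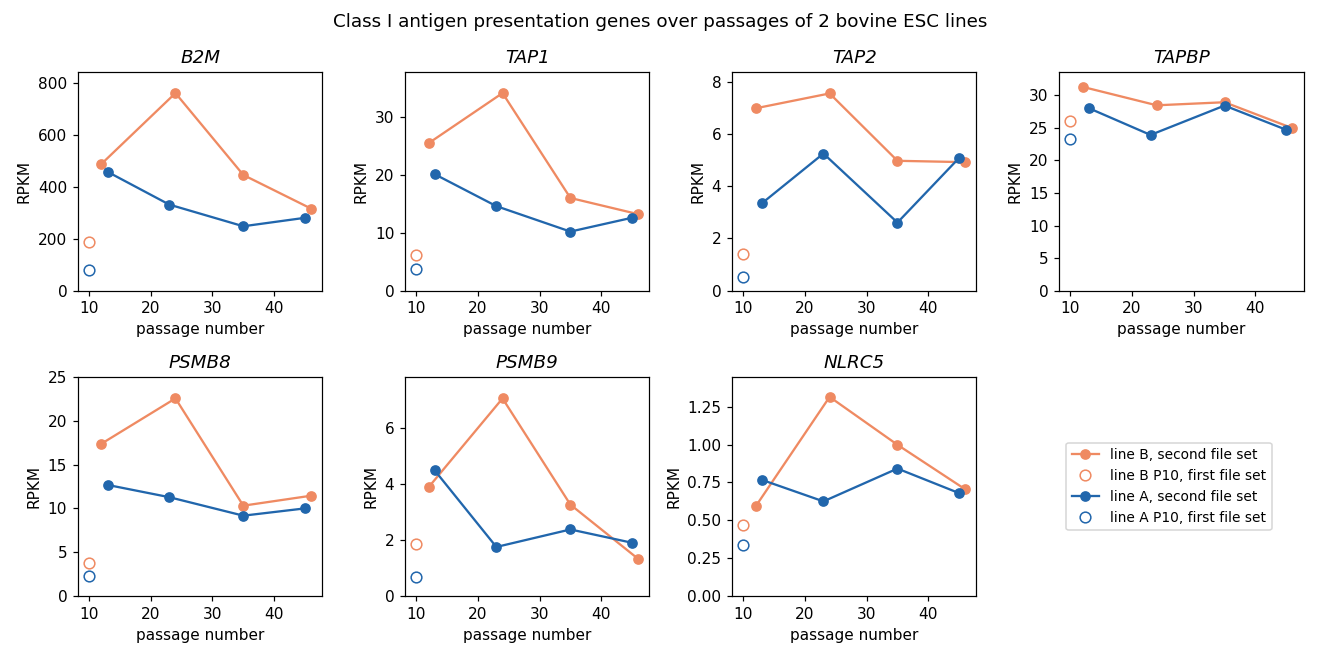
RPKM of the 7 genes by passage number in line B and line A, with filled points for the second set of files and open points for P10 in the first set. Line B at P24 is the highest point for every gene but TAPBP.

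Line B at P24 was the peak for 6 of the 7 members, with TAPBP as the exception. It was the highest of the 8 later libraries for 7.98% of all tested genes. In that library TAP2 had 7.56 RPKM, PSMB8 22.6 RPKM, PSMB9 7.07 RPKM and NLRC5 1.32 RPKM. IRF1 (4.95 RPKM) and JSP.1 (146 RPKM) also had their highest later value there, while 0 of 12 tested interferon-stimulated genes did. Fibroblast markers summed to 296 RPKM in this library, within the range of the others, and immune markers to 20.8 RPKM, the second highest of the 8 sums. Line A at P35 was the lowest library for B2M, TAP1, TAP2 and PSMB8, with 247, 10.2, 2.61 and 9.17 RPKM, and it was lowest for 9.99% of all tested genes. It also had the lowest sum of immune markers, 9.07 RPKM. Their part was not tested.

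The members rose and fell together to different degrees. Across the 8 later libraries, which share serial cultures and 1 set of files, Pearson's r on the log2 scale was 0.97 for B2M with TAP1, 0.96 for TAP1 with PSMB8 and 0.88 for B2M with PSMB9. It was 0.10 for TAP2 with TAPBP, the lowest of 21 pairs. Across all 14 libraries, where cell type and file set add to the spread, the gene outside the lists whose pattern was most like the mean of the members was PPM1M, a protein phosphatase (r = 0.96). It was followed by ENSBTAG00000005146 (0.95), HMOX1, a heme oxygenase (0.95), ENSBTAG00000005140 (0.94) and CD40, a receptor of antigen-presenting cells (0.94). PPM1M had 4.42 to 6.83 RPKM in later bESC and 1.54 and 0.957 RPKM at P10, against a listed 0 in both blastocyst pools and 10.1 and 8.42 RPKM in fibroblasts.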

How the data were processed

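The authors deposited RPKM values per gene, 1 file per library, from TruSeq libraries of total RNA. The build UMD3.1 and edgeR are named in the submitters' processing notes without a role; an aligner, counter or annotation was not given in the sources used here. Depth in reads is unknown, and counting intervals are not given. From the first set of files 26 unreadable names, 25 date names and 21 blank values were left out; 26 date names of the second set were restored.

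RPKM were analysed as log2(RPKM + 1), which understates changes of low genes, with a filter of at least 1 RPKM in at least 2 libraries. limma 3.58.1 (R 4.3.3; two-sided, empirical Bayes with trend, Benjamini-Hochberg over all genes) was fitted to the 6 libraries of the first set as 3 groups (P10, blastocysts, fibroblasts), and to the 8 later libraries with line and passage, and their interaction. It was tested on simulated data. These comparisons share their P10, blastocyst or fibroblast samples. The sets of files were not tested against each other. The members, lists and tests were chosen with earlier results of these data known. Named were all members, the 3 called genes with the smallest adjusted p per list, in part, and the 5 genes most like the members' mean. The regulators higher at P10 than in fibroblasts were named after their values were seen. Leaving P13 and P35 of line A out beside P10, and the names shared by both sets, were chosen after seeing the data. A gene that the rule names is not reported here.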

Additional observations from a re-analysis of the deposited data

How the results depend on the processing

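Against fibroblasts, the 5 members lower at P10 kept their calls under every alternative, and leaving out each library in turn gave 5 to 5 lower and 0 to 0 higher. TAP1 turned there to -0.16 (quantile) and -0.095 (median-of-ratios), and ranged from -0.21 to 0.42 with a library left out. Against blastocysts, the members called higher numbered 1 under quantile normalization and 2 to 5 with a library left out, and 1 was called lower under quantile normalization, median-of-ratios scaling and rescaling without the 2 most abundant features. Under these 3, in that order, B2M turned to -0.53, -1.0 and -0.54; TAP1 turned to -0.49 and -0.10 under the first 2, and TAP2 to -0.28 under the first. PSMB9 ranged from -0.53 to 0.23 with a library left out. Between blastocysts and fibroblasts, TAP1 turned to 0.34, 0.0079 and 0.012 under the 3 scalings. The scalings remove the share that 2 features take in blastocysts; the cause was not tested further. Among later bESC no alternative gave a call; the difference of slopes turned for B2M (-0.12 without line A at P13 and P35, -0.34 to 0.19 with 1 library left out), TAP1 (-0.37 to 0.089) and PSMB9 (-0.60 to 0.15). With a library left out of a pair, the lone sample is assumed to vary like the other groups. PSMB9 had no value among later bESC at a filter of 5 RPKM. The letters A and B in the titles were used as a replicate block; deviations of same-letter libraries correlated at -0.08, -0.10 and 0.19, and whether the letters mark shared animals is not stated. With this block 5 members were lower against fibroblasts, 4 were higher against blastocysts (TAP2 added, adjusted p = 0.0384) and 6 were lower in blastocysts than in fibroblasts. Values near or under 1 RPKM, as for NLRC5, PSMB9 and, at P10 and in blastocysts, TAP2, rest on few reads of unknown number. At a pseudocount of 0.1 the changes of low members were larger, as for TAP2 (-4.27) at P10 against fibroblasts, PSMB8 (3.84) at P10 against blastocysts, and TAP2 (-6.09) and PSMB8 (-6.91) in blastocysts against fibroblasts.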
